A study of Mus musculus with 6 samples.

Results

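The mouse mitochondrial genome carries 37 genes whose symbols start with mt-: 13 encode proteins, 2 encode ribosomal RNAs (rRNAs) and 22 encode transfer RNAs (tRNAs). They were taken from the deposited count tables by symbol, together with Gm28437 and Gm28438, pseudogenes on chromosome 1 that are nuclear copies of mt-Co3 and mt-Nd3. This gave 39 members among 55487 counted genes. The counts came from the cerebellum of male mice at postnatal day 14, in 3 libraries from mice homozygous for the knockout allele of Galnt17 (formerly Wbscr17) from the KOMP repository (KO) and 3 from B6C3 wild types (WT), where B6C3 stands for the cross of C57BL/6J with C3H/He. The labels state that the homozygous deletion was lethal before birth on C57BL/6 and that viable pups were obtained by breeding to B6C3 hybrids, so the knockouts carry a mixed background. The strain of the dams, from which a pup inherits its mitochondrial genome, is not given in the labels. No label says outright that each library is a different animal, so p-values measure the spread between these libraries.

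Mitochondrial DNA is transcribed from both strands as long precursors, and enzymes release the mRNAs and rRNAs by cutting out the tRNAs that lie between them. The 13 proteins are subunits of the respiratory chain: 7 belong to complex I (NADH dehydrogenase), 1 to complex III (cytochrome b), 3 to complex IV (cytochrome c oxidase) and 2 to complex V (ATP synthase). The rRNAs and tRNAs serve the mitochondrial ribosome that translates them. Neurons depend heavily on this chain for ATP. Fragments of mitochondrial DNA have also been inserted into nuclear chromosomes during evolution, and a read from a gene that has such a copy can align equally well to both places.

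2 features of the sequence bear on how these genes were counted, and the stretches that carry them are shown here, 5′ to 3′ on the coding strand, from transcripts of the GENCODE annotation (GRCm38). The mt-Atp8 gene (mitochondrial bases 7766 to 7969) ends inside mt-Atp6 (7927 to 8607). The 43 bases that belong to both genes (7927 to 7969) are in capitals in this stretch of 103 bases.
mt-Atp8 to mt-Atp6: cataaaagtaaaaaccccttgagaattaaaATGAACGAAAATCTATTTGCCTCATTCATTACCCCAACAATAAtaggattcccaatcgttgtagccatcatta
The mt-Atp6 gene in turn shares only its last base, 8607, with mt-Co3 (8607 to 9390), again in capitals.
mt-Atp6 to mt-Co3: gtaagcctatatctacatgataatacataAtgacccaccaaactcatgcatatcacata
The second feature is the copies. Gm28437 (chromosome 1, 24613189 to 24613971, minus strand) matches mt-Co3 at all of its 783 bases, as the opening 60 bases of each show.
mt-Co3: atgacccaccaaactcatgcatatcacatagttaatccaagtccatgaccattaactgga
Gm28437: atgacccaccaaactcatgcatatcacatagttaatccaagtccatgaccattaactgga
Gm28438 (chromosome 1, 24612775 to 24613119, minus strand) is 345 bases long and differs from mt-Nd3 (9459 to 9806) at 1 base, T3C, counted from 1 at the gene's first base. That base is in capitals in these stretches of 33 bases.
mt-Nd3: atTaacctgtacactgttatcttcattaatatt
Gm28438: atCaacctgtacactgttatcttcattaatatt

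Both copies belong to a run of 7 annotated pseudogenes on the minus strand of chromosome 1, which spans 4663 bases and follows the order of the mitochondrial genes from mt-Co1 to mt-Nd4. Of the 7, 5 were identical to their gene over the matched stretch, and the copies of mt-Nd3 and mt-Co1 had 1 mismatch each. A sequencing read here was 150 bases long. Of all 150-base windows of a gene, the share also present in an annotated copy was 99.8% for mt-Co3, 99.4% for mt-Co2 and for mt-Atp6, 98.0% for mt-Nd4l and 97.0% for mt-Nd3. It was 59.2% for mt-Nd4 and 23.6% for mt-Co1, whose copies are partial. For mt-Atp8, mt-Nd1, mt-Nd2, mt-Nd5, mt-Nd6 and mt-Cytb no window was shared. The last 43 bases of mt-Atp8, those it shares with mt-Atp6, are also in Gm10925, the copy of mt-Atp6, and the rest of the gene has no annotated copy. That rest lies in a stretch of 233 bases between the matched parts of mt-Co2 and mt-Atp6, for which chromosome 1 has an unannotated gap of the same 233 bases. The sequence of that gap was not used here.

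Counts assigned to genes ranged from 17111611 to 29840046 per library. The targeted gene, Galnt17, fitted the labels, with 2.99 ± 0.526 CPM (the count divided by the size of its library, in the usual unit) in KO and 45.3 ± 2.21 in WT (SD, n = 3 each). Reads that STAR did not map were more frequent in every KO library, at 15.5%, 17.2% and 13.8% of all reads against 6.52%, 9.80% and 10.03% in WT. Markers of the choroid plexus and ependyma also differed between the groups: 9 of 20 fell and none rose. The 9 were Aqp1, Folr1, Enpp2, Slc4a5, Kl, Kcne2, Kcnj13, Sostdc1 and F5. None of the ependymal and ciliary markers (Foxj1, Ccdc153, Tmem212, Dynlrb2, Rsph1 and Cfap126) passed in edgeR. The 20 markers summed to 269 to 829 CPM in KO and 1669 to 2979 CPM in WT, with none of them at 0. Of 10 Purkinje cell markers, 3 rose and none fell, at a summed 5449 to 5688 CPM in KO and 4469 to 4844 CPM in WT. Over all tested genes 0.784% rose and 0.872% fell. The granule cell markers, 10 in all, gave no call in edgeR in either direction. At an unadjusted p below 0.05, 1 was higher and 0 lower, against 8.57% and 8.99% of all genes. These 10 markers summed to 6250 to 6413 CPM in KO and 5903 to 6371 CPM in WT. The part of these differences in the results for the mitochondrial genes was not tested.

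The comparison of KO with WT asks how the level of each mitochondrial RNA differs between the groups. The labels do not show the groups to be matched for background or dam. The loss of Galnt17 therefore cannot be told apart from a difference in either. Of the 39 members, 18 had enough counts to be tested: all 13 protein genes, both rRNAs, the tRNA gene mt-Tp and both copies. Each of these had at least 32 counts in every library, so none entered the test through 1 group alone. In KO 6 of the 18 rose, namely mt-Atp8, mt-Co3, mt-Nd3, mt-Tp, Gm28437 and Gm28438, and none fell (edgeR quasi-likelihood F test, Benjamini-Hochberg adjusted p below 0.05). At an unadjusted p below 0.05, 12 of the 18 were higher and 0 lower, against 8.57% and 8.99% of all genes. The background share of all 18237 tested genes that rose was 0.784%, and 0.872% fell. The log2 fold change was above 0 for 15 of the 18, against 48.5% of all genes, and its median was 0.43 against -0.01. In 13 of the 18 every KO library exceeded every WT library, which held for 11.5% of all genes. The members were chosen with earlier results of these data known, and both copies among them were called. The other pseudogenes of the same run were not members, and none of them passed in edgeR. Both copies also share nearly all of their sequence with mt-Co3 and mt-Nd3, so their calls are not independent of those genes. The shares of members given here therefore depend in part on which genes were chosen. In bulk tissue, more RNA per cell cannot be told apart from more cells of a type rich in that RNA.

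**Figure D1:**
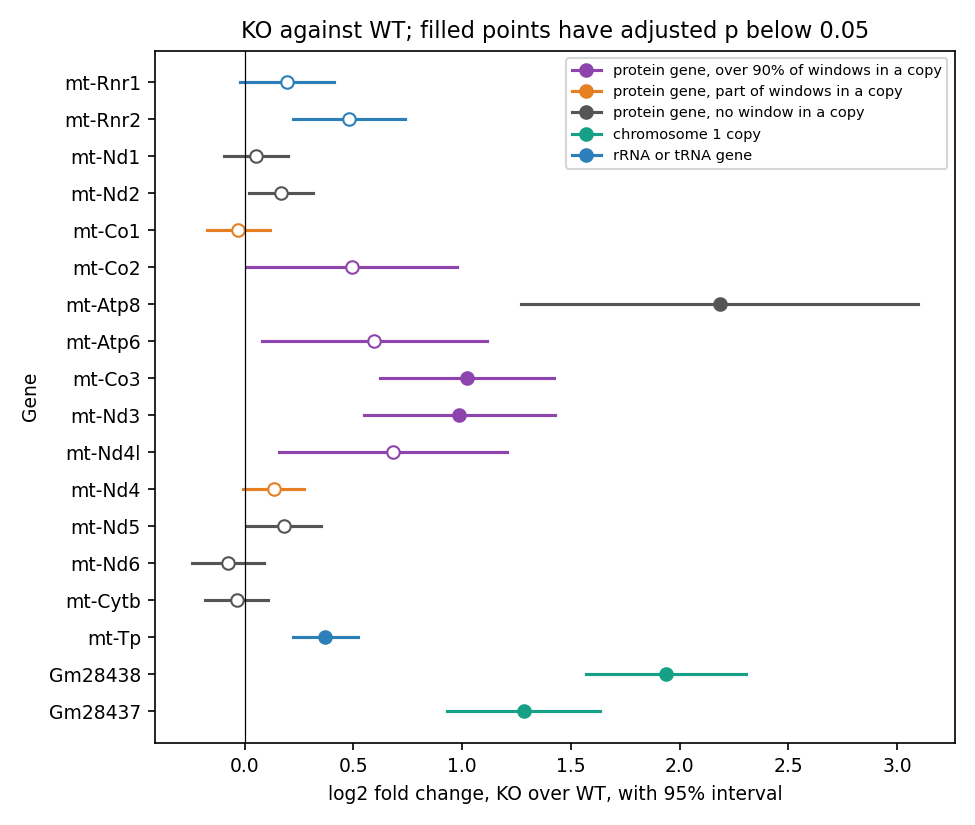
Log2 fold change of KO over WT (x axis) for the 18 tested members (y axis), with the 95% interval from edgeR's test as a line. Colours give the share of 150-base windows found in an annotated chromosome 1 copy, and filled points have an adjusted p below 0.05. The 6 filled points lie to the right of 0, with mt-Atp8 at 2.18, and mt-Co1, mt-Nd6 and mt-Cytb lie just to its left.

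Calls were lost or gained when single libraries were left out. Without KO replicate 1, KO replicate 2 or KO replicate 3, 2 members were called each time, Gm28437 and Gm28438, against 0.212%, 0.153% and 0.23% of all genes. Without WT replicate 2 the count was 4 (0.309% of all genes rose), without WT replicate 3 it was 6 (0.925%) and without WT replicate 1 it was 9 (5.22%). WT replicate 1 was the lowest of the 6 libraries for 13 of the 18 tested members.

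Per length of gene, the members spanned a wide range of levels, here in RPKM, which scales counts by gene length and library size (mean ± SD, n = 3). The most abundant was mt-Co1, the catalytic subunit of complex IV, at 8061 ± 126 in KO and 8223 ± 105 in WT. Next came mt-Cytb, at 4946 ± 57.2 in KO and 5074 ± 170 in WT, and mt-Nd1, at 3321 ± 124 and 3204 ± 132. The complex I genes mt-Nd2, mt-Nd5, mt-Nd4 and mt-Nd6 followed, with KO means from 2024 down to 1267, and the rRNAs lay just below, at 1202 for mt-Rnr2 and 1198 for mt-Rnr1. The 5 genes that share at least 90% of their windows with a copy, together with mt-Atp8, were the lowest protein genes, with KO means from 319 ± 21.5 for mt-Co3 down to 53.2 ± 2.43 for mt-Nd3. Reads that map equally well to more than 1 place are not counted for any gene, so for those 5 genes the counts hold only pairs that STAR could place uniquely.

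**Figure D2:**
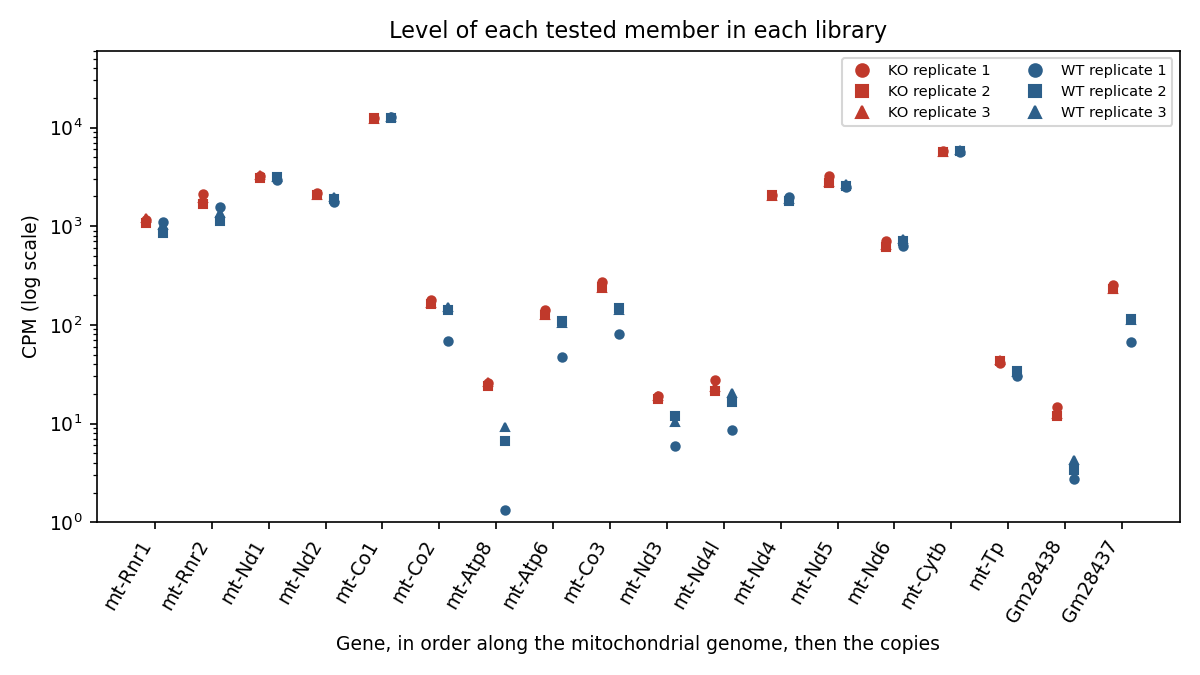
CPM on a log axis (y axis) for the 18 tested members in each library, with genes along the mitochondrial genome and then the copies on the x axis. KO libraries are red and WT libraries blue. From mt-Co2 to mt-Nd4l and in both copies the levels lie far below those of the flanking genes, and WT replicate 1 lies below the other libraries.

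Complex V gave the largest change among the protein genes. The gene mt-Atp8 encodes a small subunit of the membrane part of ATP synthase. It stood at 26.0, 24.0 and 26.5 CPM in the KO libraries and at 1.33, 6.63 and 9.28 CPM in the WT libraries. The KO libraries were close together, the WT libraries differed among themselves several-fold, and the groups did not overlap. These levels rest on 534 to 776 counts in KO and 32 to 191 in WT. The log2 fold change was 2.18 ± 0.41 (SE), a 4.54-fold rise with a 95% interval of 1.27 to 3.10 on the log2 scale (adjusted p = 0.0311 in edgeR). It ran from 1.67 without WT replicate 1 to 2.80 without WT replicate 3. The call was lost without any 1 of the KO libraries (adjusted p of 0.125 to 0.127), without WT replicate 2 (0.118) and in DESeq2 (0.0711).

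Its neighbour mt-Atp6 encodes the subunit that forms the proton path of the same enzyme. It stood at 140, 125 and 126 CPM in KO and at 47.5, 109 and 104 CPM in WT. The groups did not overlap, but WT replicate 1 lay well below the other WT libraries, and the log2 fold change of 0.60 ± 0.23 did not pass (adjusted p = 0.226 in edgeR). Without WT replicate 1 it was 0.29 and passed (adjusted p = 0.0166 in edgeR). A read pair that touches 2 genes is counted for neither, and mt-Atp8 has only 162 bases in which a pair can lie without touching another gene, against 637 for mt-Atp6 and 783 for mt-Co3. The ratio of mt-Atp8 to mt-Atp6 counts was 0.185, 0.192 and 0.211 in KO and 0.0279, 0.0609 and 0.0893 in WT. The ratio of mt-Co3 to mt-Atp6, which share 1 base, was 1.92, 1.94 and 1.89 in KO and 1.69, 1.36 and 1.37 in WT. Neither ratio overlapped between the groups, at the smallest p that 3 against 3 libraries allow (exact permutation test, two-sided, p = 0.1 each). The 2 genes of complex V summed to 156 ± 8.68 CPM in KO and 91.7 ± 37.1 in WT.

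In complex IV, mt-Co3 rose while mt-Co1 showed a fold change close to 0. The gene mt-Co3 encodes a core subunit without metal centres. It stood at 269, 243 and 238 CPM in KO and at 80.2, 148 and 142 CPM in WT, so that the lowest KO library was well above the highest WT library. The log2 fold change was 1.02 ± 0.18, a 2.03-fold rise (adjusted p = 0.0222 in edgeR). Without KO replicate 1, KO replicate 2 or KO replicate 3 it no longer passed (adjusted p of 0.107, 0.0958 and 0.0782). The gene mt-Co2, whose product receives electrons from cytochrome c, stood at 177, 161 and 167 CPM in KO and at 69.0, 141 and 150 CPM in WT. Its groups did not overlap, and its log2 fold change of 0.49 ± 0.22 did not pass (adjusted p = 0.276 in edgeR). Without WT replicate 1 it was 0.21 and passed (adjusted p = 0.0428 in edgeR). For mt-Co1 the libraries of both groups lay between 12244 and 12813 CPM, and the log2 fold change was -0.03 ± 0.07 with a 95% interval of -0.17 to 0.12 (adjusted p = 0.853 in edgeR). Since mt-Co1 takes most of the uniquely placed counts, the counts of complex IV as a whole came to 12926 ± 196 CPM in KO and 12859 ± 95.8 in WT.

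Of the 7 complex I genes, mt-Nd3 was the only one called. Its product lies at the joint between the membrane arm and the matrix arm. It stood at 19.1, 17.5 and 18.8 CPM in KO and at 5.96, 12.03 and 10.4 CPM in WT. The groups were well apart, with WT replicate 1 lowest, and the log2 fold change was 0.99 ± 0.20 (adjusted p = 0.0382 in edgeR). The call was lost without any 1 of the KO libraries (adjusted p of 0.164, 0.142 and 0.148). The gene mt-Nd4l, a small membrane subunit, stood at 27.4, 21.4 and 23.6 CPM in KO and at 8.66, 16.6 and 20.3 CPM in WT. Its groups were apart by a narrow margin, and its log2 fold change of 0.68 ± 0.24 did not pass (adjusted p = 0.177 in edgeR).

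The longer membrane subunits of complex I, mt-Nd2, mt-Nd4 and mt-Nd5, had small differences that did not pass. For mt-Nd2 the libraries held 2158, 2075 and 2071 CPM in KO and 1756, 1885 and 1971 CPM in WT, with a log2 fold change of 0.17 ± 0.07 (adjusted p = 0.234 in edgeR). For mt-Nd4 the log2 fold change was 0.13 ± 0.06 and for mt-Nd5 it was 0.18 ± 0.08 (adjusted p of 0.305 and 0.257). In these 3 genes every KO library exceeded every WT library. For mt-Nd1 the log2 fold change was 0.05 ± 0.07 and for mt-Nd6, the protein gene encoded on the other strand, it was -0.08 ± 0.08, and in both the groups overlapped (adjusted p of 0.721 and 0.635). The 14 bases that mt-Nd6 shares with mt-Nd5 lie on opposite strands. When strands were counted apart, mt-Nd6 gained 28.8% to 47.6% more counts, and its log2 fold change became 0.06 in the one strand column and 0.11 in the other. The relative gain was larger in every KO library than in any WT library. Over all genes the strand columns split evenly, so the added counts cannot be assigned to mt-Nd6 rather than to the transcript on the other strand. Complex I as a whole held 11002 ± 359 CPM in KO and 10036 ± 246 in WT, without overlap (exact permutation test, two-sided, p = 0.1, the smallest possible).

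Complex III has a single mitochondrially encoded subunit, cytochrome b. The mt-Cytb libraries held 5732, 5606 and 5638 CPM in KO and 5593, 5848 and 5974 CPM in WT. The groups overlapped, and the log2 fold change was -0.04 ± 0.06 with a 95% interval of -0.18 to 0.11 (adjusted p = 0.805 in edgeR).

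The large rRNA, mt-Rnr2, stood at 2099, 1694 and 1910 CPM in KO and at 1577, 1139 and 1371 CPM in WT. The groups did not overlap, and the log2 fold change of 0.48 ± 0.12 missed the threshold (adjusted p = 0.0750 in edgeR). It passed in DESeq2 (adjusted p = 0.000126), in edgeR's exact test (0.00533), in both strand columns (0.0435 and 0.0450), with no filter on low counts (1.7e-08) and without WT replicate 1 (0.00659). It did not pass in limma-voom (0.0623), under the other scalings in edgeR (0.0624 to 0.0745) or with copies added (0.0754). Nor did it pass in edgeR without KO replicate 1, 2 or 3 (0.26, 0.147 and 0.23) or without WT replicate 2 or 3 (0.182 and 0.0841). The small rRNA, mt-Rnr1, stood at 1152, 1070 and 1209 CPM in KO and at 1111, 845 and 1040 CPM in WT. Its groups overlapped, and its log2 fold change was 0.20 ± 0.10 (adjusted p = 0.327 in edgeR). The ratio of mt-Rnr2 to mt-Rnr1 counts was 1.66 ± 0.139 in KO and 1.36 ± 0.0517 in WT (SD, n = 3), without overlap (exact permutation test, two-sided, p = 0.1). The labels name the TruSeq RNA kit but not how rRNA was removed, and the part of that step in the rRNA levels was not tested.

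Of the 22 tRNA genes, 21 held no count in any library when strand was ignored. Mitochondrial tRNA genes are 59 to 75 bases long here, and for the 20 that lie between annotated neighbours the stretch in which a pair can lie without touching another gene was 58 to 105 bases, shorter than 1 read. A count of 0 therefore limits only pairs that touch no other gene, to at most 0.101 to 0.175 CPM per library (3 counts, counting error only). In the strand columns 10 of the 21 had some counts, and 11 had none in any column. Above 10 counts in every library were 6 of them, of which 5 lie on the minus strand, opposite to most mitochondrial genes. The kit's strand is not stated and the columns split evenly, so those counts cannot be assigned to the tRNA rather than to the transcript on the other strand.

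The exception was mt-Tp, the proline tRNA gene at the end of the annotated genes (15356 to 15422, minus strand), beyond which no gene is annotated. It stood at 40.7, 42.8 and 43.6 CPM in KO and at 30.5, 34.3 and 33.6 CPM in WT. Both groups were tight, and the log2 fold change was 0.37 ± 0.07, a 1.29-fold rise (adjusted p = 0.0244 in edgeR). The call was lost without KO replicate 1, 2 or 3 (adjusted p of 0.0811, 0.153 and 0.132), without WT replicate 2 (0.0576) and in one strand column (0.174). Pairs of 150-base reads that touch these 67 bases extend beyond them. With strand ignored, a pair that also touches the adjacent mt-Tt is counted for neither gene. The value therefore covers part of the neighbouring control region as well as the tRNA.

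The copies on chromosome 1 rose together with their genes. Gm28437, the copy of mt-Co3 shown above, stood at 251, 230 and 230 CPM in KO and at 67.3, 114 and 112 CPM in WT. Every KO library was far above the highest of WT, and the log2 fold change was 1.28 ± 0.16, a 2.43-fold rise (adjusted p = 0.00288 in edgeR). Gm28438, the copy of mt-Nd3 with the T3C difference, stood at 14.6, 12.03 and 12.6 CPM in KO and at 2.73, 3.34 and 4.23 CPM in WT. Its log2 fold change was 1.94 ± 0.17, a 3.83-fold rise (adjusted p = 0.000232 in edgeR). Both passed in each setting that left out a library, with the highest adjusted p at 0.0198 for Gm28437 and 0.00441 for Gm28438. The other 5 pseudogenes of the run were each higher in every KO library than in any WT library. The same held for 11.5% of all tested genes. Log2 fold changes of these 5 ran from 0.62 for Gm28661 to 0.93 for Gm28439, and none passed in edgeR (adjusted p from 0.0536 to 0.245). WT replicate 1 was the lowest library for each of the 5. For Gm28661 it stood at 42.6 CPM, against 84.1 and 88.4 CPM in the other WT libraries. For Gm10222 the groups were apart by a narrow margin, at 8.94 CPM in the lowest KO library and 8.26 CPM in the highest WT library.

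Because a read can belong to either place, the counts of gene and copy were also added. Reads that map equally well to both are in neither count. The sums therefore hold uniquely placed pairs only and do not give the full level of either RNA. The sum of mt-Co3 and Gm28437 was 520, 473 and 468 CPM in KO and 147, 262 and 254 CPM in WT. The sum did not overlap between groups, and its log2 fold change was 1.14 ± 0.17 (adjusted p = 0.00965 in edgeR). It missed the threshold without KO replicate 1 (adjusted p = 0.0548 in edgeR) and without KO replicate 2 (0.0528). The sum of mt-Nd3 and Gm28438 was 33.7, 29.6 and 31.4 CPM in KO and 8.70, 15.4 and 14.6 CPM in WT, with a log2 fold change of 1.31 ± 0.17 (adjusted p = 0.00412 in edgeR), and passed without any 1 library (highest adjusted p = 0.0277 in edgeR). With these sums in place of the separate counts, 4 of 16 members rose, namely both sums, mt-Atp8 and mt-Tp, against 0.757% of all genes, and none fell. Leaving out each KO library in turn left 1, 1 and 2 called, against 0.207%, 0.147% and 0.23% of all genes. Without WT replicate 1, 2 or 3 the count was 7, 2 and 4, against 5.21%, 0.298% and 0.915%. Adding all 7 copies to their genes also gave 4 of 16, against 0.79% of all genes. The sums of mt-Atp6, mt-Co2 and mt-Nd4l with their copies did not pass (adjusted p of 0.211, 0.233 and 0.183).

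**Figure D3:**
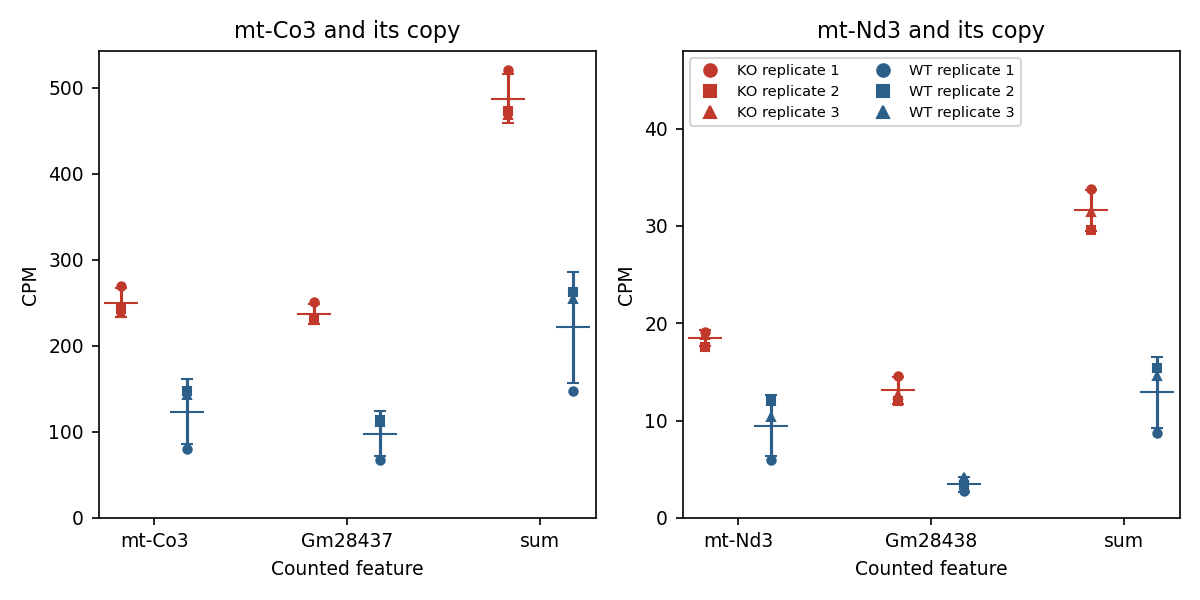
CPM (y axis) of mt-Co3 and Gm28437 (left), of mt-Nd3 and Gm28438 (right) and of the sum of each pair, by library. Horizontal marks are group means and bars are SDs over 3 libraries. KO lies above WT in each gene, copy and sum, and WT replicate 1 is lowest throughout.

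The share of a pair that fell to the copy differed between groups as well. Of the mt-Co3 and Gm28437 counts, the copy held 48.2%, 48.6% and 49.2% in KO and 45.6%, 43.6% and 44.0% in WT. Gm28437 thus held close to an equal share with mt-Co3 in KO and somewhat less in WT. Of the mt-Nd3 and Gm28438 counts, the copy held 43.3%, 40.7% and 40.1% in KO and 31.4%, 21.8% and 29% in WT. The groups did not overlap in either pair (exact permutation test, two-sided, p = 0.1 each, the smallest possible). The exact binomial 95% intervals of single libraries, which cover counting error only, reached from 47.4% to 50.2% in KO and from 42.1% to 47.3% in WT for Gm28437, and from 36.3% to 46.4% and from 16.9% to 38.2% for Gm28438. For mt-Atp6 and Gm10925 the copy held 51.2% ± 0.741 in KO and 49.9% ± 0.588 in WT (SD, n = 3), with overlap.

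The strand columns also split some of these pairs unevenly. Over all genes the column counted for the strand of the first read held 49.94% to 49.99% of the strand-specific counts. For mt-Co3 it held 50.7%, 52.8% and 49.9% in KO and 56.8%, 56.3% and 55.8% in WT. For Gm28437 it held 49.9% in each KO library and 43.4%, 46.2% and 44.9% in WT. The WT libraries were thus off balance in opposite directions at gene and copy, and the sum of the pair lay at 49.9% to 51.4% in KO and 50.7% to 51.9% in WT. For mt-Atp6 the share was 54.4% ± 1.12 in WT and 50.9% ± 1.86 in KO, and for its copy Gm10925 it was 41.5% ± 2.36 in WT and 46.7% ± 0.662 in KO, so that this copy was below balance in both groups. The sum of mt-Atp6 and Gm10925 lay at 47.8% to 49.8% in KO and 47.3% to 48.5% in WT. The pair of mt-Nd3 and Gm28438 differed from this: mt-Nd3 held 51.2% ± 2.44 in KO and 49.9% ± 5.34 in WT, with overlap, and the sum of the pair ran from 49.4% to 50.9% in KO and from 39.05% to 51.5% in WT. Among genes with no annotated copy, every library of mt-Nd1 and mt-Cytb lay between 48.9% and 50.8%, and mt-Nd6 reached 52.3%. The tRNA gene mt-Tp, for which no annotated copy was found, held 46.3% ± 0.673 in KO and 51.5% ± 2.75 in WT, a gap as wide as that of mt-Co3. The groups of mt-Co3, Gm28437, mt-Atp6, Gm10925 and mt-Tp did not overlap (exact permutation test, two-sided, p = 0.1 each). Nor did those of mt-Co2, Gm29216, mt-Nd1, mt-Co1 and mt-Rnr1 (the same test and p). That p is the smallest that 3 against 3 libraries allow, and how often such splits stand apart over all genes was not computed. For mt-Co2 the share was 52.6% ± 1.16 in KO and 56.4% ± 1.91 in WT. For Gm29216, the copy of mt-Co1, it was 49.3% ± 1.07 in KO and 45.3% ± 1.28 in WT. In mt-Nd1, mt-Co1 and mt-Rnr1 the differences were below 1 percentage point.

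**Figure D4:**
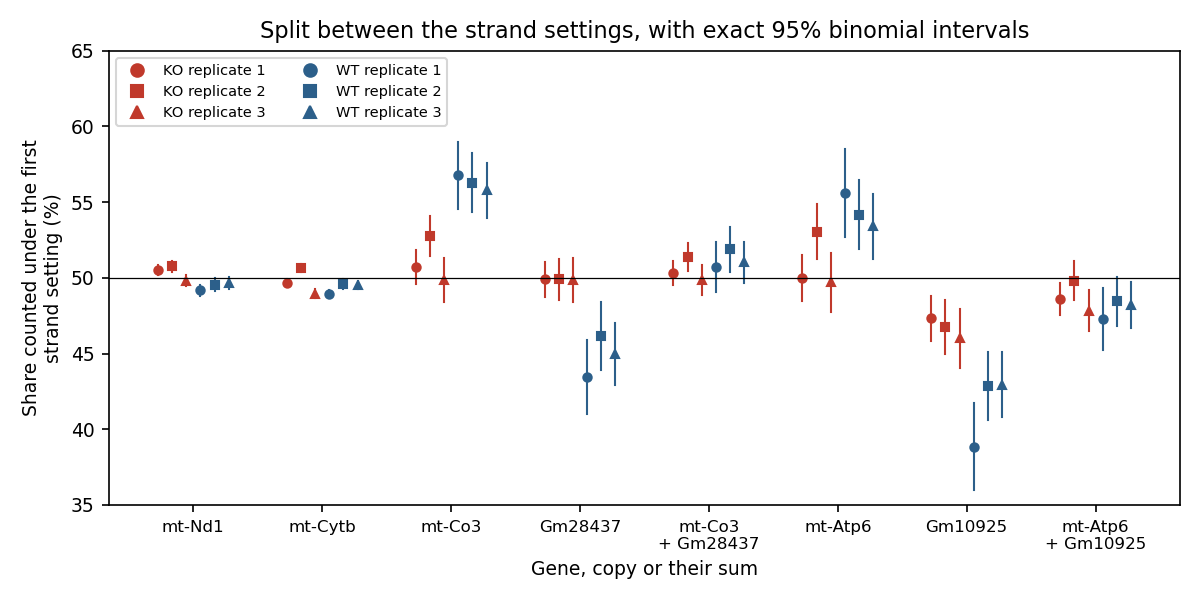
Share of the strand-specific counts held by the column for the strand of the first read (y axis, in percent). On the x axis are genes with no window in a copy, genes with a copy, the copies and their sums. Lines are exact binomial 95% intervals per library, for counting error only. In WT mt-Co3 lies at 55.8% to 56.8% and Gm28437 at 43.4% to 46.2%, and their sum at 50.7% to 51.9%.

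The protein genes were also summed by how much of each is repeated in a copy. The 5 genes with at least 90% of their windows in a copy summed to 633, 573 and 575 CPM in KO and to 212, 424 and 420 in WT, without overlap. Their single log2 fold changes ran from 0.49 to 1.02. The partly copied mt-Co1 and mt-Nd4 summed to 14579 ± 217 in KO and 14488 ± 247 in WT. Without mt-Atp8, the genes with no shared window summed to 14568 ± 401 in KO and 13905 ± 446 in WT. In both of these classes the groups overlapped, and for the 7 genes in them log2 fold changes ran from -0.08 to 0.18. The share of unmapped reads moved with the level of the 5 copied genes: WT replicate 1 was lowest in both, the other WT libraries came next and the KO libraries were highest in both. Within KO the order did not hold, as KO replicate 2 had the most unmapped reads and the lowest of the 3 sums. The part of the unmapped reads in these levels was not tested.

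**Figure D5:**
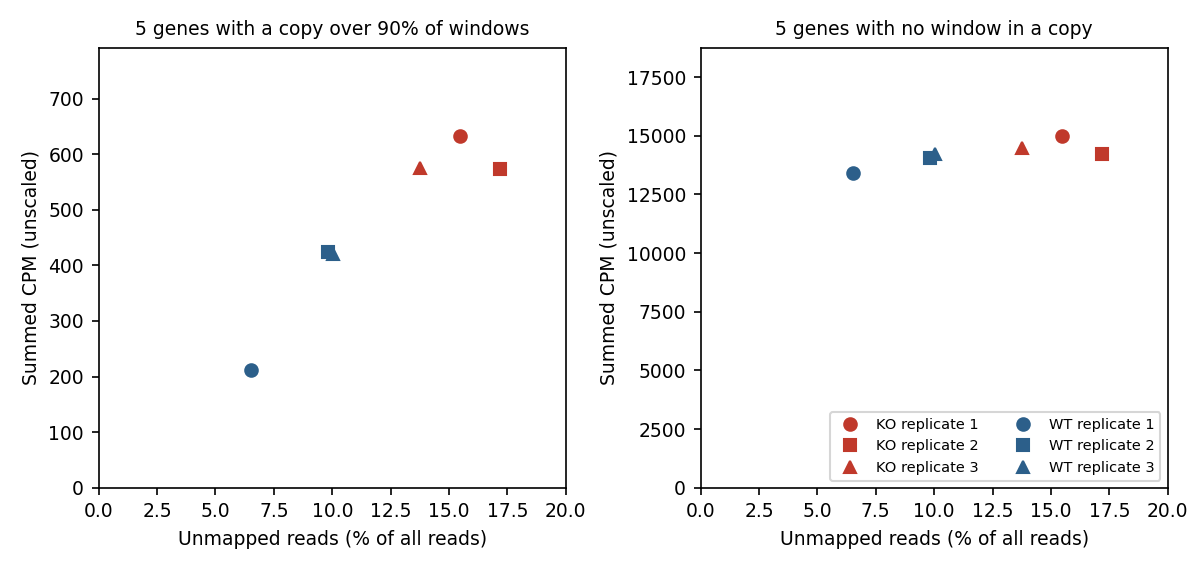
Summed CPM (y axes, both from 0) against unmapped reads in percent of all reads (x axes), 1 point per library. On the left are the 5 genes with at least 90% of their windows in a copy, which run from 212 to 633. On the right are mt-Nd1, mt-Nd2, mt-Nd5, mt-Nd6 and mt-Cytb, which run from 13400 to 15002.

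Together the 37 mt- genes took 3.37%, 3.23% and 3.26% of all gene counts in KO and 3.11%, 3.08% and 3.15% in WT. Every KO library was higher, by 0.174 percentage points on average (exact permutation test, two-sided, p = 0.1, the smallest possible). As a share of all reads, unmapped ones included, the difference turned round: 2.24% ± 0.0689 in KO and 2.33% ± 0.0348 in WT, with overlap. Of the uniquely placed counts of the 13 mRNAs, mt-Co1 took 42.02% ± 0.579 in KO and 43.9% ± 1.06 in WT, and mt-Cytb took 19.1% ± 0.196 and 20.05% ± 0.272, both lower in every KO library. Reads that also map to a copy are left out, so these shares do not give the make-up of the mRNAs themselves. Because the 13 shares add up to a whole, some fall when others rise. The log2 fold changes of mt-Co1 and mt-Cytb were only -0.03 and -0.04. The shares of 8 mRNAs were higher in every KO library, and those of the other 3 overlapped. No share over all genes can be set beside this count, because the measure is taken within the 13 mRNAs. None of the 13 shares passed an exact permutation test (smallest p adjusted over 13 = 0.13).

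The nuclear genes of the same pathways were counted alongside. Of 53 nuclear genes for mitochondrial transcription, RNA processing and translation, 52 were tested, none rose and none fell in edgeR, with 1 higher and 3 lower at an unadjusted p below 0.05 and a median log2 fold change of -0.03. As shares of the 52, both lie below the 8.57% and 8.99% of all genes at that threshold. Grsf1, which binds mitochondrial RNA in the granules where it is processed, stood at 96.7 ± 1.07 CPM in KO and 107 ± 0.845 in WT, with a log2 fold change of -0.14 ± 0.05 (adjusted p = 0.17 in edgeR). Of 72 nuclear subunits of the respiratory chain, 1 fell and none rose in edgeR, with 13 lower and 0 higher at an unadjusted p below 0.05 and a median log2 fold change of -0.08. Over all genes 0.872% fell and 8.99% were lower at the unadjusted threshold. The one that fell was Ndufa10, a complex I subunit, at 117 ± 1.66 CPM in KO and 143 ± 7.33 in WT, with a log2 fold change of -0.28 ± 0.05 (adjusted p = 0.0335 in edgeR).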

How the data were processed

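The authors deposited whole-number read counts per gene, 1 STAR table per library, with 1 column that ignores strand and 2 that use it. Per the submitters' processing notes, STAR 2.7.5a and GRCm38 were used. No source used here gives the counting options. The 4 summary lines stayed out of library sizes. The column that ignores strand was used, and the strand columns were an alternative. The symbols, positions and transcript sequences came from GENCODE release 21, which matched 55227 of 55487 identifiers. KO and WT were compared by the two-sided quasi-likelihood F test of edgeR 4.0.16 (R 4.3.3) after its default low-count filter (minimum count 10, total 15) and TMM scaling, with Benjamini-Hochberg adjustment over 18237 genes. CPM of single genes are TMM-scaled, and sums over complexes or copy classes and all shares use unscaled gene counts. RPKM divides CPM by annotated length. SEs derive from the F statistic. Ratios and shares were compared by exact permutation over libraries. Copies were aligned with an ungapped match (2 per match, -3 per mismatch). DESeq2 1.42.0, limma 3.58.1, other scalings, no filter, and leaving out each library were alternatives. Of the steps, only the edgeR fit was tested on simulated counts, into which known fold changes had been put. Copied genes were grouped by 90% of shared windows. Each tested member is named, and listed nuclear genes are named by smallest p. The members and lists were chosen with earlier results of these data known.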

Additional observations from a re-analysis of the deposited data

Results flagged for a closer look

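Unmapped reads lie outside the gene counts, and they differed between the groups. Their mean was 15.476% of all reads in KO and 8.79% in WT, with every KO library above every WT library (exact permutation test, two-sided, p = 0.1, the smallest that 3 against 3 allow). Multimapping reads, which include pairs shared by a mitochondrial gene and its chromosome 1 copy, were 3.82% ± 0.0918 of all reads in KO and 4.20% ± 0.103 in WT (SD, n = 3). As a share of mapped reads they were 4.52% ± 0.0854 and 4.60% ± 0.135, with overlap.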

How the results depend on the processing

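The count of members that rose was 6 under the other scalings (DESeq2 size factors, library totals, factors from other genes and from mitochondrial mRNAs), in DESeq2 and in limma-voom, 7 in edgeR's exact test and in each strand column, 4 with copies added and 10 with no filter on low counts, and no member fell in any setting. Over these settings 0.631% to 2.71% of all genes rose. Leaving out 1 library gave 2 to 9, and for the table with copies added 1 to 7 in place of 4, where 0.153% to 5.22% and 0.147% to 5.21% of all genes rose. The log2 fold change of mt-Co1 was 0.0011 in one strand column, and that of mt-Nd6 was 0.056 there and 0.11 in the other. The difference in the mitochondrial share over all reads, unmapped included, an alternative chosen after seeing the data, was -0.0876 percentage points. The cause of these changes was not tested. The genes mt-Atp8 and mt-Nd3 had few counts, at 32 to 776 and 144 to 571 per library. The SDs of their log2 CPM over the WT libraries were 1.46 and 0.53. The part of depth in their results was not tested. No paired analysis was possible because the labels give no replicate numbers: the numbers used here follow accession order, only name the libraries and tie none of them to a litter, batch or day.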
